A study of Mus musculus with 12 samples.

Results

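A set of 8 genes that encode the machinery of Notch receptor cleavage was followed in the mouse right atrium. They were chosen by their role, as rows of the deposited gene table whose symbol is Adam10, Adam17, Psen2, Ncstn, Aph1a, Aph1b, Psenen or Mib1, and all 8 were found among 40690 gene identifiers. Right atrial RNA was sequenced in 12 libraries, 6 from iNICD mice, a line named for the Notch intracellular domain, and 6 from control littermates. Animals of both groups were 2 to 3 months old when they were put on doxycycline chow for 3 weeks, and the tissue was collected with no interval off the drug. The sources used here do not give strain, sex, the promoter behind the iNICD allele or the alleles of the controls. The series text calls the 6 atrial samples of a group different, without saying that each is a single animal, so p-values measure the spread between these samples.

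A Notch receptor at the cell surface is cut in sequence once a ligand on a neighbouring cell binds it. The ubiquitin ligase MIB1 drives endocytosis of the ligand in the sending cell, which pulls on the receptor. The metalloproteases ADAM10 and ADAM17 then shed the receptor's outer part, and gamma-secretase cuts the remaining stub within the membrane and frees the intracellular domain. Gamma-secretase holds a presenilin as its catalytic subunit (PSEN2 is a form of it), nicastrin (from Ncstn), an APH1 protein and PEN-2 (from Psenen). The mouse has 3 genes for the APH1 position, Aph1a, Aph1b and Aph1c.

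In iNICD atria Aph1b was higher by 1.40-fold and was the 1 gene of the 7 testable ones that passed the test. Adam10, Adam17, Psen2, Ncstn, Aph1a and Mib1 did not pass it. Psenen was too low to be tested with the others. Across all genes 6.71% passed, 4.87% as higher and 1.84% as lower in iNICD, so 1 of 7 is read against a background of that size. Levels are the CPM deposited by the authors (reads scaled to a common library total). The test was limma on log2(CPM + 0.5) over the 14336 genes that reached 1 CPM in 6 or more libraries, with Benjamini-Hochberg adjusted p under 0.05 as the threshold.

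The libraries held 12015650 to 22716190 reads assigned to genes. Notch1 served as a check of the labels. It was at 192 to 293 CPM in controls and 3064 to 5358 CPM in iNICD, a log2 fold change of 4.12 (SE 0.14, limma adjusted p = 3.8e-11), and reads of an introduced and of the native sequence are not told apart. Xist, the RNA of the inactive X chromosome, was at 464 to 649 CPM in 7 libraries and at 7.07 to 13.5 CPM in 5. Control 3, iNICD 3 and iNICD 5 carried 20234 to 30814 CPM of the RNA Gm42418, against 119 to 4790 CPM in the others. The atrial muscle markers Nppa, Myl7, Myl4 and Sln were present in every library, and their summed level was 18979 to 23047 CPM in controls and 7649 to 11072 CPM in iNICD, with 4 of 4 lower. Of 5 macrophage markers 4 were higher, and their sum was 210 to 298 CPM in controls and 296 to 428 CPM in iNICD. Of 5 fibroblast markers 1 was higher, and none of 5 endothelial, 5 smooth muscle and pericyte, 5 further cardiomyocyte, 3 adipocyte, 3 erythroid, 3 mesothelial or 2 tested ventricular markers was called. The summed level of the 5 further cardiomyocyte markers was nonetheless lower in every iNICD library, at 126410 to 142380 CPM against 145790 to 152660 CPM in controls. The sums of the other lists in this group, from fibroblast to ventricular, overlapped between iNICD and controls. None of the markers on these lists was at 0 in all libraries. In whole atrial tissue, fewer cells of a type and less RNA per cell cannot be told apart, and the part of these shifts in the results on the cleavage genes was not tested.

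**Figure D1:**
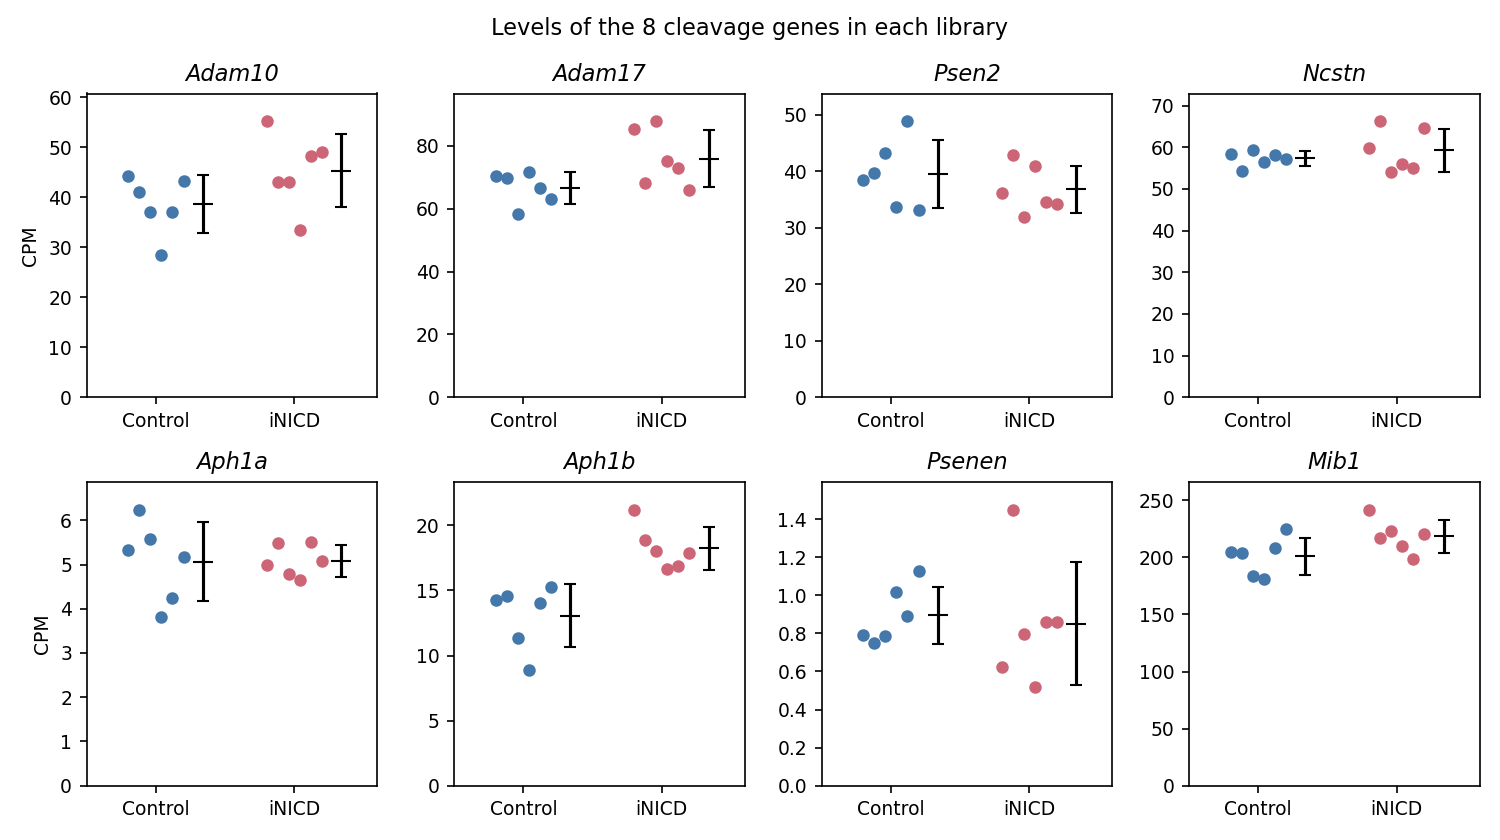
CPM of the 8 cleavage genes in each library (points, replicates 1 to 6 from left to right within a group), with the mean and SD beside them; each panel has its own axis from 0. The 6 iNICD libraries lie above all controls for Aph1b, at 16.6 to 21.2 against 8.92 to 15.3 CPM, while the groups overlap in the 7 other panels.

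Aph1b (ENSMUSG00000032375, chr9:66775202-66795490, GRCm38, minus strand) encodes a form of the APH1 subunit, the scaffold on which gamma-secretase assembles. Its level was 14.3, 14.6, 11.3, 8.92, 14.0 and 15.3 CPM in controls 1 to 6. In iNICD 1 to 6 it was 21.2, 18.8, 18.0, 16.6, 16.9 and 17.8 CPM. All 6 iNICD libraries were above the highest control, and control 4 was the lowest of all 12 libraries. Absence of overlap was found for 4.59% of all genes tested, 3.46% with iNICD higher. The means were 13.1 ± 2.44 and 18.2 ± 1.66 CPM (SD, n = 6 each), resting on 140 to 324 reads a library.

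Aph1b had a log2 fold change of 0.48 (SE 0.12, limma adjusted p = 0.027), with a 95% interval of 1.16- to 1.68-fold. The exact two-sided permutation test of its mean log2 level gave p = 0.0022, the smallest that 6 against 6 libraries allow. Among libraries with high Xist, Aph1b was at 11.3 to 14.6 CPM in 4 controls and 18.0 to 21.2 CPM in 3 iNICD libraries. Among those with low Xist it was at 8.92 and 15.3 CPM in 2 controls and 16.6 to 17.8 CPM in 3 iNICD libraries. The difference was present at both Xist levels, with log2 differences of 0.50 and 0.53. The latter rests on 2 controls that lay far apart, 1 of them control 4, the lowest of all 12 libraries. The call rested on small margins: adjusted p was 0.063 without control 3, 0.078 without iNICD 1, 0.058 without iNICD 2, 0.055 without iNICD 3 and 0.13 without the 3 libraries high in Gm42418, with log2 fold changes of 0.44 to 0.49 in these fits.

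Aph1b has a close copy, Aph1c, on the same chromosome (chr9:66814994-66834726, GRCm38, minus strand). The coding sequences of the longest coding transcripts in GENCODE M21 were 96.2% identical between Aph1b and Aph1c, over 771 aligned bases, and 61.1% identical between Aph1a and Aph1b. The first 120 coding bases of the pair, spliced, 5′ to 3′ and starting at the start codon, are shown because the bases that separate the genes decide where a read is counted. Capitals mark the 14 positions at which they differ, and lower-case letters are shared.
Aph1b, chr9:66794234-66795365: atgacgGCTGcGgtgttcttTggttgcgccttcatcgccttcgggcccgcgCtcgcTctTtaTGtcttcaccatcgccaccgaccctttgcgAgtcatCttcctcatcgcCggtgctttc
Aph1c, chr9:66833323-66834598: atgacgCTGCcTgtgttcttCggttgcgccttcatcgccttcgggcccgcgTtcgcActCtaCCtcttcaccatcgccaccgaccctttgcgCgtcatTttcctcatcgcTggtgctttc
Over the whole Aph1b transcript, 19.7% of windows of 50 bases also occur in an Aph1c transcript, and none occurs in an Aph1a transcript. The sources used here do not say how reads that match both copies were counted, so the split of reads between Aph1b and Aph1c is uncertain.

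Aph1c was much lower than Aph1b, at 1.91 to 3.96 CPM with a median of 2.96 in controls and 2.65 to 4.75 CPM with a median of 3.72 in iNICD. The groups overlapped, and 1 iNICD library was above all controls. Its log2 fold change was 0.29 (SE 0.20, limma adjusted p = 0.48). With the reads of Aph1b and Aph1c added together, an alternative chosen after the values were seen, the log2 fold change was 0.45 (limma adjusted p = 0.033).

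Aph1a (ENSMUSG00000015750, chr3:95893969-95898288, GRCm38, plus strand) encodes the other main form of the subunit. It ranged from 3.82 to 6.24 CPM with a median of 5.24 in controls and from 4.64 to 5.51 CPM with a median of 5.04 in iNICD. The iNICD libraries lay entirely within the range of the controls. The log2 fold change was 0.02 (SE 0.13, limma adjusted p = 0.96), with a 95% interval of 0.841- to 1.22-fold, and its sign turned with the scaling between libraries. Of the 3450 bases of its annotated exons, 12.9% overlap exons of Car14 on the other strand, and the strand setting of the count is not given.

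The balance between the 2 main APH1 genes was compared within each library, where the scaling between libraries drops out of the CPM ratio. The CPM ratio of Aph1b to Aph1a was 2.68, 2.33, 2.03, 2.33, 3.31 and 2.97 in controls 1 to 6. It was 4.25, 3.44, 3.77, 3.58, 3.06 and 3.51 in iNICD 1 to 6. Of the 6 iNICD ratios 5 were above the highest control ratio, and that of iNICD 5 lay between the highest 2 controls. The mean ratio was 2.61 ± 0.471 in controls and 3.60 ± 0.393 in iNICD (SD, n = 6), a difference of 0.47 on the log2(CPM + 0.5) scale. The exact two-sided permutation test on that log2 scale gave p = 0.0043, or 0.0087 adjusted by Benjamini-Hochberg over the 2 ratios tested. The added 0.5 leaves some of the scaling in the tested values, and the difference was 0.48 with 0.1 added and 0.43 with 2 added. Per kilobase of exon, Aph1b made up 55.4 ± 4.71% of the summed level of the 3 Aph1 genes in controls and 61.9 ± 2.35% in iNICD, while Aph1a made up 32.3 ± 3.51% and 25.9 ± 2.15% (SD, n = 6).

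**Figure D2:**
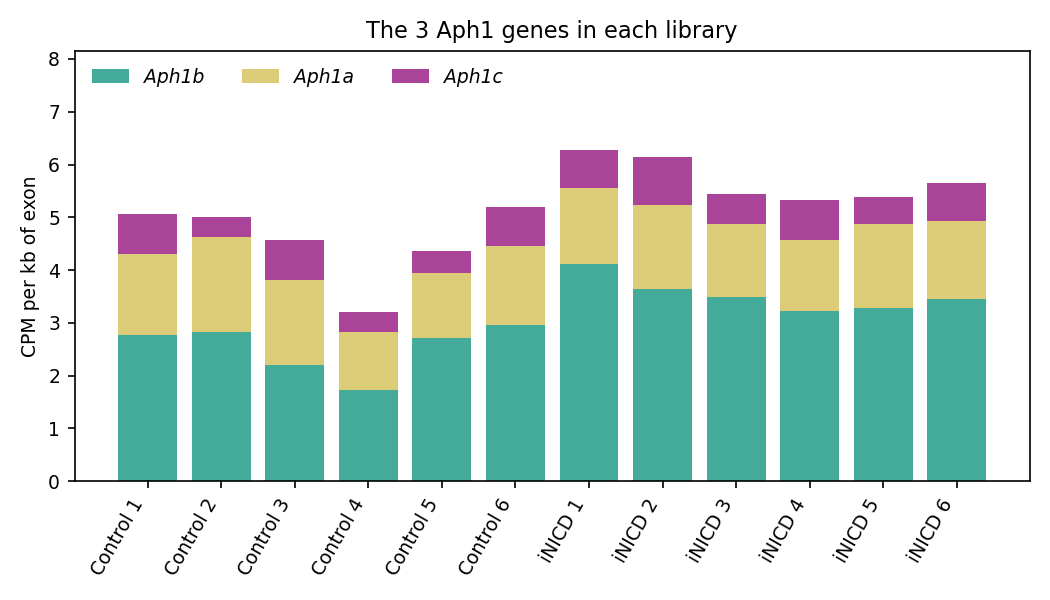
Stacked bars of the level of Aph1b, Aph1a and Aph1c in CPM per kilobase of annotated exon, 1 bar per library. Aph1b is the largest segment in every library, at 1.73 to 2.96 in controls and 3.22 to 4.11 in iNICD; Aph1a is at 1.11 to 1.81 and 1.35 to 1.60.

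The promoters of Aph1b and Aph1a are shown because the ratio of these genes differed between groups. RBPJ, the DNA-binding partner of the Notch intracellular domain, recognises a motif with the core TGGGAA. Windows from 250 bases before to 50 bases after the RefSeq start (GRCm38.p6), 5′ to 3′ on the gene's strand, are printed with each match on either strand in capitals.
Aph1b, chr9:66795374-66795673, minus strand: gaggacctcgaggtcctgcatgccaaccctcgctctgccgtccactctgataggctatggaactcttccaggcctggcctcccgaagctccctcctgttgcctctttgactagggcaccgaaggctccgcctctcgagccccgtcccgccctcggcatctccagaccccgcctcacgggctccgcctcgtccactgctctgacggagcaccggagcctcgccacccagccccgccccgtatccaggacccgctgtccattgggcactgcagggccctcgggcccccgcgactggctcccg
Aph1a, chr3:95893671-95893970, plus strand: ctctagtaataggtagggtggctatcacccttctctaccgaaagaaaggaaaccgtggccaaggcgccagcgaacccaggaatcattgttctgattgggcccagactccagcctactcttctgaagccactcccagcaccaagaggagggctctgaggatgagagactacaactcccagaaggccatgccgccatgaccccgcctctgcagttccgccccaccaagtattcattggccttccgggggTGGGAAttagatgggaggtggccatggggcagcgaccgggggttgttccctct
The window of Aph1a, which did not pass the test, held the core and also its longer form GTGGGAA, and the window of Aph1b held neither. The core occurred in 25.6% and GTGGGAA, which contains it, in 6.39% of 32817 such windows of all genes. Windows were at hand for 7 of the 8 cleavage genes, and the core was in 3 of their 9 windows, 1 each of Aph1a, Psen2 and Psenen. A match describes these letters and is not a binding site, and no match says only that the letters are not in the window.

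None of the other subunits of gamma-secretase passed the test. Nicastrin, the subunit that receives the shed stub, comes from Ncstn (ENSMUSG00000003458, chr1:172066013-172082795). Ncstn was at 54.3 to 59.3 CPM with a median of 57.6 in controls and 54.2 to 66.3 CPM with a median of 57.9 in iNICD. The groups overlapped, and iNICD 1, iNICD 2 and iNICD 6 were above all controls. For Ncstn the log2 fold change was 0.05 (SE 0.07, limma adjusted p = 0.79), and the 95% interval ran from 0.934- to 1.14-fold. The sign of this difference turned under other scalings between libraries.

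Psen2 (ENSMUSG00000010609, chr1:180227004-180263438), the presenilin gene among the 8, was at 33.1 to 48.9 CPM with a median of 39.1 in controls. It was at 32.0 to 42.9 CPM with a median of 35.3 in iNICD. The ranges overlapped over most of their length, and control 5 was the highest library. Psen2 had a log2 fold change of -0.10 (SE 0.10, limma adjusted p = 0.69, 95% interval 0.802- to 1.09-fold). With high Xist the log2 difference was -0.20 and with low Xist 0.12, so the direction was not shared, and the difference between these values was not tested.

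Psenen (ENSMUSG00000036835, chr7:30561863-30563627) encodes PEN-2, the smallest subunit, which completes the active complex. It reached 1 CPM in 3 of the 12 libraries and so stayed out of the test. The level was 0.749 to 1.13 CPM with a median of 0.841 in controls and 0.516 to 1.45 CPM with a median of 0.828 in iNICD, from 8 to 19 reads a library. The highest and the lowest library were both iNICD. The log2 difference was -0.07 with an exact two-sided permutation p of 0.66. Its exons overlap those of U2af1l4 and Gm49396 on the other strand over 9.33% of 1275 bases.

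Both sheddases had a higher mean in iNICD without passing the test. Adam10 (ENSMUSG00000054693, chr9:70678997-70780229) encodes the main enzyme of ligand-driven Notch shedding. It was at 28.5 to 44.3 CPM with a median of 39.1 in controls and 33.5 to 55.2 CPM with a median of 45.7 in iNICD. In all, 3 iNICD libraries were above all controls, but iNICD 4 was below 5 of them. Adam10 had a log2 fold change of 0.23 (SE 0.12, limma adjusted p = 0.35, 95% interval 0.976- to 1.40-fold).

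Adam17 (ENSMUSG00000052593, chr12:21323509-21373632), best known as the enzyme that releases tumour necrosis factor, was at 58.2 to 71.9 CPM with a median of 68.2 in controls. In iNICD it was at 66.0 to 87.9 CPM with a median of 74.2. In all, 4 iNICD libraries exceeded all controls and the other 2 lay within their range. The log2 fold change was 0.18 (SE 0.08, limma adjusted p = 0.26, unadjusted p = 0.047), with a 95% interval of 1.00- to 1.29-fold. The unadjusted p is read against the 18.8% of all genes that had one under 0.05. The CPM ratio of Adam10 to Adam17 was 0.583 ± 0.101 in controls and 0.603 ± 0.113 in iNICD (SD, n = 6, exact permutation p = 0.79, also after adjustment over the 2 ratios).

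Mib1 (ENSMUSG00000024294, chr18:10725548-10818704), on the ligand side, was at 181 to 225 CPM with a median of 204 in controls and 198 to 242 CPM with a median of 219 in iNICD. Only iNICD 1 was above all controls. Mib1 had a log2 fold change of 0.12 (SE 0.07, limma adjusted p = 0.40, 95% interval 0.978- to 1.21-fold). Control 4 was the lowest of all 12 libraries in Mib1, Adam10, Aph1a and Aph1b. Without control 4 the log2 fold change of Adam10 was 0.14 and that of Aph1b 0.38, the latter still past the threshold (limma adjusted p = 0.020).

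**Figure D3:**
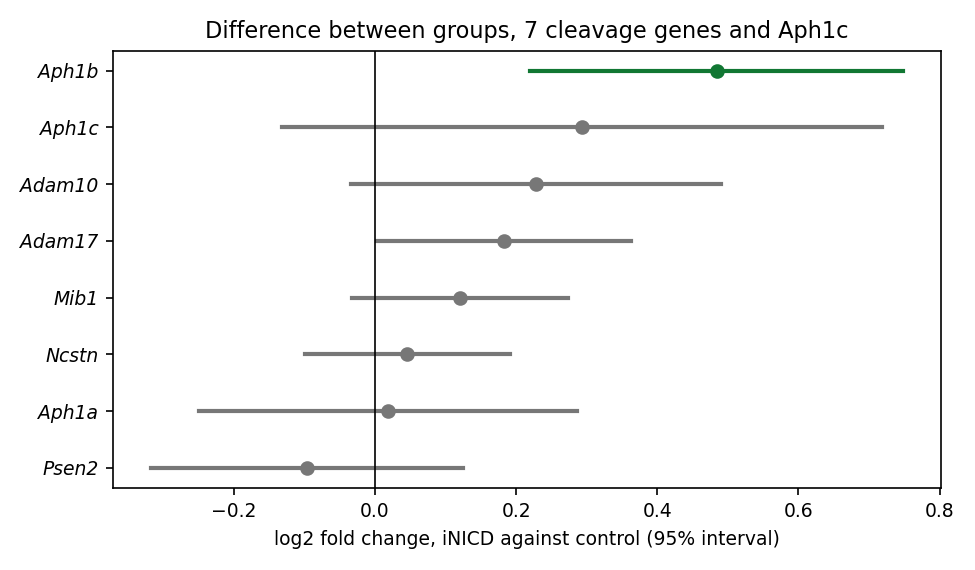
Log2 fold change, iNICD against control, with its 95% interval from the limma fit for the 7 cleavage genes tested and for Aph1c; green marks an adjusted p under 0.05. Aph1b, at 0.48, is the 1 gene in green, and the intervals of the others reach to or close to 0.

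The level of the 8 genes relative to each other was set out per kilobase of annotated exon (GENCODE M21), since CPM grow with transcript length. In controls the mean CPM per kilobase was 18.4 ± 1.49 for Mib1, 14.4 ± 0.439 for Ncstn, 9.32 ± 0.728 for Adam17 and 9.12 ± 1.38 for Psen2. It was 7.85 ± 1.18 for Adam10, 2.53 ± 0.473 for Aph1b, 1.47 ± 0.258 for Aph1a and 0.701 ± 0.118 for Psenen (SD, n = 6 each). In this order Adam17 and Psen2, Psen2 and Adam10, and Aph1b and Aph1a overlapped between control libraries, and the other neighbours did not. In iNICD Adam10 came before Psen2, at 9.23 ± 1.50 against 8.49 ± 0.978 CPM per kilobase, and these overlapped. Aph1b did not overlap Aph1a in iNICD, with 3.53 ± 0.322 against 1.47 ± 0.103 CPM per kilobase. The overlap in controls came only from Aph1b in control 4, at 1.73, against Aph1a in control 2, at 1.81 CPM per kilobase. Within each library of either group Aph1b was above Aph1a.

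The genes whose level followed Aph1b most closely from library to library, after the mean of each group was taken away, were Ufl1, Akr1c14 and Cox15. Pearson's r was 0.97, 0.96 and 0.95 over the 12 libraries, the top 3 of 13014 genes ranked, as a description of values that share library totals. None of these genes passed the test, with log2 fold changes of 0.00, 0.21 and -0.00.

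Genes around the cleavage step were taken from 7 lists with 70 entries, of which 65 were tested. Of these 65, 5 were higher and none lower in iNICD, though 4 were higher and 2 lower with median-of-ratios scaling, quantile normalization, edgeR or DESeq2. The 5 calls are 7.69% against 6.71% of all genes, with a median log2 fold change of 0.08 against 0.05 for all genes. An unadjusted limma p under 0.05 was found for 12 of the 65, a share near the 18.8% of all genes. No member was called among 5 tested TspanC8 tetraspanins, which carry ADAM10 to the surface, or among 8 genes of ADAM maturation and inhibition, such as the iRhoms, furin and Timp3. None was called among 11 other ADAM and BACE genes, of which 1 (Adam19, lower) passed without control 6 and 2 (Adam19, lower, and Bace2, higher) in the high Xist libraries alone. Nor was any called among 8 genes of gamma-secretase assembly and modulation (Aph1c among them) or among 3 presenilin-like proteases. Tspan10, Adam28, Sppl2c and Areg were too low to be tested, and Hm13 was not analysed here.

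The calls were in 2 lists. Of 11 genes of ligand ubiquitination and endocytic sorting, 1 was higher, Neurl3, which belongs to the neuralized family of ubiquitin ligases. Neurl3 was at 2.93 to 5.95 CPM with a median of 4.16 in controls and 5.01 to 9.10 CPM with a median of 7.26 in iNICD. The lowest iNICD libraries, iNICD 5 and iNICD 4, lay below the highest control. The log2 fold change was 0.66 (SE 0.17, limma adjusted p = 0.032), and leaving out iNICD 1, 2, 3 or 6, or control 2, 3 or 6, ended the call, with limma adjusted p of 0.053 to 0.086, and without the 3 libraries high in Gm42418 (0.066). Other settings called more of this list. Aak1, a kinase of the endocytic adaptor machinery, and Numb, an adaptor that antagonises Notch, were called lower with median-of-ratios scaling, quantile normalization, edgeR and DESeq2, making 3 calls in each. With array weights 2 were called, Neurl3 and Aak1 (lower), and with Xist as a covariate 2, Neurl3 and Neurl1b (higher). In the limma fit as reported the log2 fold change was -0.19 for Aak1 (adjusted p = 0.11), -0.17 for Numb (adjusted p = 0.19) and 0.29 for Neurl1b (adjusted p = 0.16). These 3 genes, Adam19 and Bace2 were named after their values were seen.

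Of 19 tested substrates of the sheddases or of gamma-secretase other than Notch, 4 were higher and none lower, which is 21.1% against 6.71% of all genes called and 4.87% called higher. The list median log2 fold change was 0.20 against 0.05 over all genes. The lists were chosen with earlier results of these data known, so this share is a description and not a test. Over all 7 lists the share called was 7.69%. Without the 3 libraries high in Gm42418, where Tnf was not tested, 2 of the 4 calls were left. App and Erbb4, named after their values were seen, were called higher in other settings. App was called with array weights, the Xist covariate or iNICD 5 left out (limma adjusted p of 0.034 to 0.043). Erbb4 was called without control 6 (0.018) and in the high Xist libraries alone (0.045). In the limma fit as reported the log2 fold change was 0.20 for App (adjusted p = 0.071) and 0.51 for Erbb4 (adjusted p = 0.095). Cd44, a hyaluronan receptor, was at 31.8 to 79.1 CPM with a median of 37.3 in controls and 76.3 to 102 CPM with a median of 82.7 in iNICD. Control 4, at 79.1 CPM, was the control that reached into the iNICD range, and the others were at 40.7 CPM or less. The log2 fold change of Cd44 was 1.06 (SE 0.19, limma adjusted p = 0.0035). Nrg1, the growth factor neuregulin 1, was at 1.59 to 2.83 CPM with a median of 2.10 in controls and 2.97 to 10.6 CPM with a median of 4.85 in iNICD. The groups did not overlap, and iNICD 4 was far above the rest. Its log2 fold change was 1.10 (SE 0.22, limma adjusted p = 0.0071).

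Cxcl16, a membrane-bound chemokine, was at 17.4 to 24.1 CPM with a median of 19.5 in controls and 23.3 to 30.0 CPM with a median of 27.6 in iNICD. Only the lowest iNICD library, iNICD 6, overlapped the controls. The log2 fold change was 0.43 (SE 0.09, limma adjusted p = 0.010), and 0.38 with adjusted p = 0.10 without the 3 libraries high in Gm42418. Tnf, the classic substrate of ADAM17, was at 0.157 to 1.08 CPM with a median of 0.319 in controls and 0.529 to 1.48 CPM with a median of 1.12 in iNICD. Control 4 was the highest control and lay above iNICD 1, iNICD 5 and iNICD 6. The log2 fold change of Tnf was 0.83 (SE 0.23, limma adjusted p = 0.041). Tnf reached 1 CPM only in iNICD 1 to 5 and control 4, so it passed the filter mainly through the group where it is high. Without any 1 of these libraries it was not tested. Leaving out any other control ended the call, at limma adjusted p of 0.058 to 0.094, and leaving out iNICD 6 kept it (0.023). The call also ended with log2(CPM + 2) (0.051), median-of-ratios scaling (0.061), quantile normalization (0.093), edgeR (0.087) and DESeq2 (0.062). Controls other than control 4 were at 0.157 to 0.499 CPM, and 1 read in control 3 was 0.0786 CPM. Cd44, Cxcl16 and Tnf are also expressed by macrophages, whose marker sum was 210 to 298 CPM in controls and 296 to 428 CPM in iNICD, and the part of that shift in these levels was not tested.

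**Figure D4:**
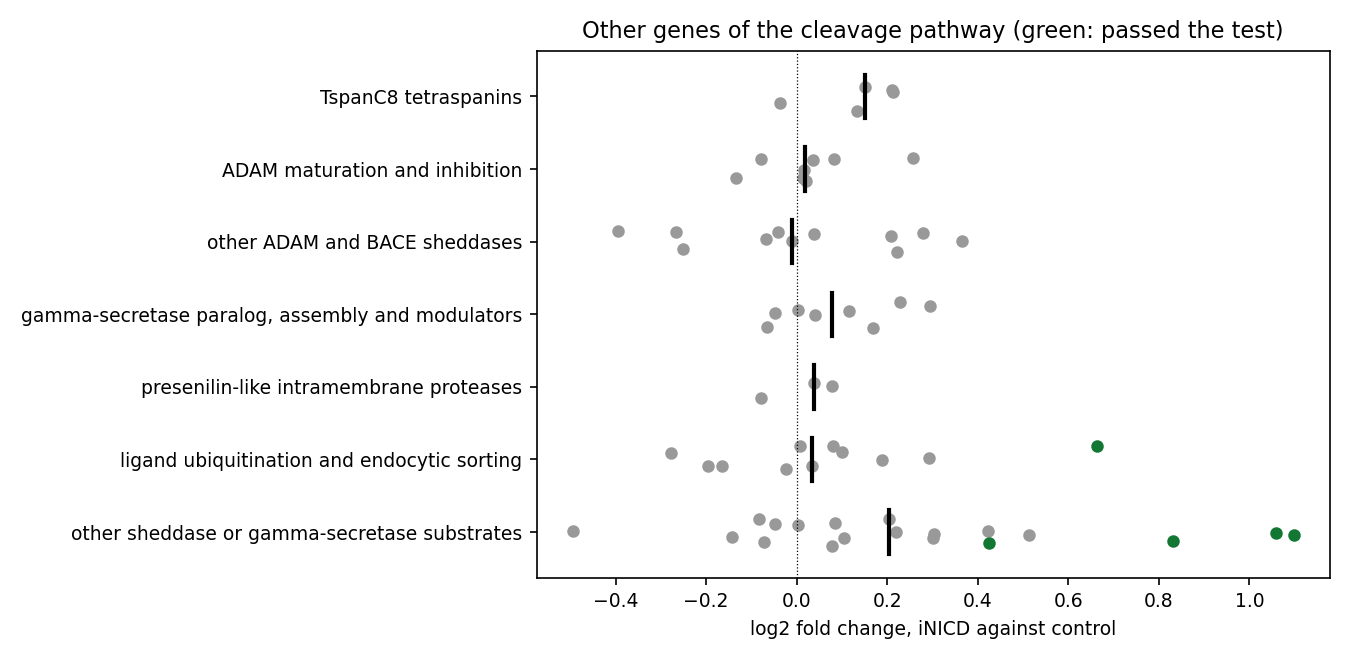
Log2 fold change, iNICD against control, of the 65 tested genes on 7 lists around the cleavage step, 1 point per gene, with the list median as a bar and called genes in green. The 5 green points are Neurl3 in the sorting list and Cd44, Nrg1, Cxcl16 and Tnf in the substrate list, all right of 0.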

How the data were processed

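The authors deposited 1 table of CPM (counts scaled to a common library total) with 12 library columns, per the file headers. The aligner STAR 2.4.0b and the counter featureCounts were used, per the submitters' processing notes. The sources used here state no genome build, annotation, strand setting or treatment of multiply aligned reads. Rows that repeat a gene identifier (574 of 41264) held equal values and were used once. In every library 100% of the CPM came out as whole reads, within 0.001 reads, so reads were recovered.

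The main test was limma 3.58.1 (R 4.3.3) on log2(CPM + 0.5), with robust, trended empirical Bayes moderation; this scale understates changes of low genes. Genes that reached 1 CPM in 6 or more libraries were fitted (14336, with 26354 left out) and p-values were adjusted over all of them by Benjamini-Hochberg at 0.05. Alternatives, including edgeR 4.0.16 and DESeq2 1.42.0 on recovered reads, are given in the closing section. Exact permutation tests used all 924 relabellings, apart from the test with a replicate block, which allows fewer. Exon lengths and positions came from GENCODE M21, with all 8 genes matched by Ensembl identifier, and promoters from RefSeq.

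The genes, lists and alternatives were chosen with earlier results of these data known. Named were the 8 genes, up to 4 called genes of each list, the 3 genes closest in pattern to a called member, and Notch1, Aph1c and Xist as checks. Predicted genes were passed over. Other genes were named after their values were seen.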

Additional observations from a re-analysis of the deposited data

Results flagged for a closer look

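The highest and lowest library of each group were checked for a gap to the next that takes an unusually large share of the group's range (Dixon's 95% critical value), for 34 groups of 6 libraries, and 4 were found where chance gives about 1 in 20 groups. Psenen was at 1.45 CPM in iNICD 2, far above the other iNICD libraries, from 18 reads. Cd44 was at 79.1 CPM in control 4, and the call held without that library at a log2 fold change of 1.25. Nrg1 was at 10.6 CPM in iNICD 4. Tnf was at 1.08 CPM in control 4. No explanation was tested for these values.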

How the results depend on the processing

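Of 962 called genes (698 higher, 264 lower), 500 (360 and 140) were called without the 3 libraries high in Gm42418 and 429 (314 and 115) at a threshold of 0.01. Array weights gave 1522 (552 lower), and quantile normalization gave 407 and DESeq2 587 lower. Leaving out 1 library gave 614 to 1208 called, 430 to 779 higher and 183 to 429 lower. The lowest total and count of higher genes came without iNICD 1, and the highest count of lower genes without control 4. The 5 called list genes became 3 with a mean of 5 CPM or more, 2 without the 3 libraries, 2 at 0.01, and 3 to 5 with 1 library left out. They became 6 with median-of-ratios scaling, quantile normalization, edgeR or DESeq2, and 7 with array weights, the Xist covariate or the high Xist libraries alone. The cause of these shifts was not tested.

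Aph1b kept its direction in every alternative run, with adjusted p of 0.0021 to 0.13. It did not pass without the 3 libraries (log2 fold change 0.48, limma adjusted p = 0.13) or at a threshold of 0.01 (0.48, limma adjusted p = 0.027). With 1 library left out the log2 fold change was 0.38 to 0.53, with 8 of 12 such fits past the threshold. Adam10, Adam17 and Mib1 kept their direction and stayed short of the threshold in all alternatives run. Signs near 0 turned. Psen2 was at 0.0006 without the 3 libraries. Ncstn was at -0.0082 with median-of-ratios scaling, -0.0067 with edgeR and -0.0076 with DESeq2. Aph1a was at -0.0301 with median-of-ratios scaling, -0.0971 with quantile normalization, -0.0167 with array weights, -0.0400 with edgeR, -0.0398 with DESeq2, -0.0569 in the high Xist libraries alone (an alternative chosen after seeing the data), and -0.0508 to 0.0775 with 1 library left out. With 1 library left out Psenen was at -0.1819 to 0.0063, the ratio of Adam10 to Adam17 at -0.0604 to 0.127, and the ratio of Aph1b to Aph1a at 0.40 to 0.53.

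Libraries of the groups share numbers. Same-numbered deviations correlated at -0.0056 to 0.325, and 3 of 6 controls were closest to their own number. These values do not settle whether the numbers are pairs, and the main test did not take them as pairs. With a replicate block 1091 genes were called, Aph1b stayed at 0.48 (adjusted p = 0.020), and the ratio of Aph1b to Aph1a stayed at 0.47 with an exact permutation p of 0.0625. Fewer relabellings are possible within replicate numbers, so this p is coarser than that of the unblocked test. Depth limits Psenen most, at 8 to 19 reads a library.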
